A study of Mus musculus with 56 samples.

Results

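The collagen genes of the mouse tibialis anterior muscle were described in a titin mechanical knock-out (mKO) study. They were taken as every row of the deposited expression table whose gene symbol has the form of a collagen alpha chain, Col with a type number and a chain number. This gave 36 genes of the 14871 rows, of which 10 encode fibrillar collagens, 7 encode basement membrane collagens and 19 encode minor collagens. The mean of Col13a1 and of Col25a1, both transmembrane collagens, was under 1 CPM of the column total, and these genes were left out of the tests, so that 34 members were tested among 13017 genes.

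RNA was sequenced from 56 muscle samples in 14 groups of 3 to 5. Homozygous mKO (HOMO) muscles were collected 3, 7 and 21 days post-infection (dpi), with 4, 5 and 4 samples after AAV injection, against 4 samples after saline injection at each day. Heterozygous mKO (HET) muscles were collected at 7 dpi only, with 4 samples after AAV and 4 after saline. Wild-type (WT) muscles gave 5, 4 and 4 samples after AAV at 3, 7 and 21 dpi, against 3, 3 and 4 after saline. The AAV encodes a fusion of GFP with TEV protease, a viral enzyme that cuts one short peptide sequence. Titin is the giant elastic protein of the sarcomere, and as background, the mKO allele places the TEV site in titin so that the protease cuts it, while WT titin lacks the site. The labels give neither the animals' age nor the promoter that drives the protease, and they do not say whether samples of a group come from separate animals or whether AAV and saline muscles come from the same animal. The p-values therefore measure the spread between these samples.

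Collagens are triple helices of 3 alpha chains. Fibrillar collagens, chiefly types I and III in muscle, are made by fibroblasts and assemble into the fibres of the endomysium, perimysium and tendon. Type IV collagen forms the sheet of the basement membrane around every muscle fibre and capillary. The minor collagens connect these structures, decorate fibrils or form short networks, and type VI collagen links the basement membrane of muscle fibres to the surrounding fibrils.

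Values below are the deposited normalised counts, which are reads scaled by the authors to one effective library size. A library held between 6901207 and 27180498 reads. The lowest is HOMO AAV replicate 2 at 7 dpi, and the next lowest held 14981061. The transgene row lay at 31.2 to 80.6 in HOMO AAV libraries, against 3.31 to 48.4 in WT AAV libraries, at 3 dpi. At 7 dpi it lay at 14.3 to 29 in HOMO, 56.9 to 114 in HET and 158 to 324 in WT AAV libraries, without overlap and with WT the highest. At 21 dpi it lay at 127 to 1103 in HOMO and 111 to 1267 in WT AAV libraries. What this difference gives to the genotype comparisons was not tested. The row did not exceed 0.28 in any saline library. Marker genes of macrophages were higher after AAV in 8 of 8 cases in HOMO at each day, in HET at 7 dpi and in WT at 21 dpi, and in 0 of 8 in WT at 3 and 7 dpi. In the same 5 comparisons 4 to 7 of 8 endothelial markers and 4 to 6 of 7 muscle fibre markers were lower. Of all genes tested, 17.4 to 29.7% were higher and 17.2 to 29.6% lower in these comparisons. In bulk muscle, more cells of a type and more RNA per cell cannot be told apart.

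In saline muscle, levels per kilobase of annotated exon placed type IV and type I and III chains at the top. Over the 26 saline samples Col4a1 averaged 30.5 ± 8.46, Col3a1 28 ± 9.31, Col4a2 25 ± 5.9 and Col1a1 21.4 ± 8.4 normalised counts per kb (mean ± SD). In this order each of these 4 lay within 1 SD of its neighbour. Col6a1 followed with 17.7 ± 4.27, Col1a2 with 14.7 ± 4.68, Col6a2 with 9.58 ± 2.56 and Col15a1 with 9.52 ± 1.74 normalised counts per kb. Every other member averaged less than Col15a1, down to 0.053 ± 0.0306 normalised counts per kb for Col25a1. Minor collagens other than type VI were low, the highest being Col7a1 with 1.4 ± 0.401 normalised counts per kb. Fibrillar members made up 41.2 to 44.1% of the summed collagen level per kb in HOMO saline libraries at 7 dpi, basement membrane members 34 to 36% and minor members 21.5 to 22.8%. The order of the classes varied between saline groups. In WT saline libraries fibrillar members made up 38 to 45.4% and basement membrane members 33.1 to 42.1% at 7 dpi. At 21 dpi in WT saline libraries fibrillar members made up 35.9 to 37.9%, below the 38.3 to 42.6% of basement membrane members. Exon length here counts every annotated exon of a gene. It was 12426 bases for Col1a2 against 6563 for Col1a1, and 8326 for Col6a2 against 4380 for Col6a1. Levels per kb, and the order and class shares built on them, depend on that annotation.

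After AAV, many collagens were higher in 5 of the 7 comparisons of AAV with saline, and none passed the test in either direction in the WT muscles at 3 and 7 dpi. A gene was called at an adjusted p under 0.05 in limma, fitted on log2(value + 1) over all genes and adjusted by Benjamini-Hochberg. Fold changes below are on that log2 scale with their standard error, and they understate the change of low genes. At 3 dpi in HOMO, 9 of 34 members were higher and 3 lower, where 17.4% and 17.2% of all genes were. At 7 dpi in HOMO, 17 were higher and 4 lower, against 20.6% and 22.5% of all genes. At 21 dpi in HOMO, 16 were higher and 1 lower, against 29.7% and 29.6% of all genes. In HET at 7 dpi, 17 were higher and 2 lower, against 19.6% and 20.8% of all genes. In WT, 0 were called in either direction at 3 dpi (0% of all genes higher, 0% lower) and at 7 dpi (0% and 0%), and 17 were higher and 1 lower at 21 dpi (19.7% and 21.3% of all genes). In fits of the groups of one comparison alone with the replicate number as a block, 17 members were higher and 3 lower in HOMO at 21 dpi, where 22.9% and 22.7% of all genes were in that fit. In HET 21 were higher and 4 lower in such a fit, against 22.5% and 23.5% of all genes. The members that this fit added were Col12a1, Col6a6 and Col22a1 in HOMO and Col4a1, Col15a1, Col23a1, Col26a1, Col4a4 and Col11a1 in HET (adjusted p = 0.00292 to 0.0462). The members' share of higher calls was thus above that of all genes in each of the 5 comparisons with calls, and their share of lower calls was below it. In WT at 3 dpi no member reached an unadjusted p under 0.05 either, while 225 genes did so upwards and 205 downwards. In WT at 7 dpi no member did so, with 108 genes upwards and 102 downwards. With edgeR and DESeq2 0 members were called in both as well. Across all genes in these WT comparisons limma and edgeR called 0, and DESeq2 called 8 at 3 dpi and 7 at 7 dpi.

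The classes differed in how many members were called. Among the 10 fibrillar members, 5, 6 and 7 were higher in HOMO at 3, 7 and 21 dpi, 7 in HET at 7 dpi and 7 in WT at 21 dpi, and 0 were lower in any of them. Among the 7 basement membrane members, 0, 0 and 1 were higher in HOMO at 3, 7 and 21 dpi, 1 in HET and 2 in WT at 21 dpi, while 2, 2, 1, 1 and 0 were lower. Among the 17 minor members tested, 4, 11 and 8 were higher in HOMO, 9 in HET and 8 in WT at 21 dpi, while 1, 2, 0, 1 and 1 were lower. In the same order, 17.4%, 20.6%, 29.7%, 19.6% and 19.7% of all genes were higher and 17.2%, 22.5%, 29.6%, 20.8% and 21.3% lower. The higher counts of fibrillar members, and of minor members other than at 3 dpi, lay above these shares. The other class counts, with all those of basement membrane members, were near or below them. The median log2 change at 7 dpi in HOMO was 1.09 for fibrillar, -0.14 for basement membrane and 0.62 for minor members, with -0.01 for all genes tested. In HET the medians were 1.28, 0.25 and 1.02. In WT at 21 dpi they were 0.90, 0.08 and 0.78. Of the 34 members, 8 were higher in all 5 comparisons, namely Col1a1, Col1a2, Col3a1, Col5a1, Col5a2, Col8a1, Col8a2 and Col16a1. Another 8 were called in none of the 7, namely Col11a1, Col11a2, Col24a1, Col4a1, Col4a2, Col6a5, Col20a1 and Col28a1. Of these, edgeR and DESeq2 called Col11a2 (adjusted p = 0.0409 and 0.0294) and Col6a5 (adjusted p = 0.0364 and 0.0316) in WT at 21 dpi. The HOMO comparisons at different days use separate saline samples.

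**Figure D1:**
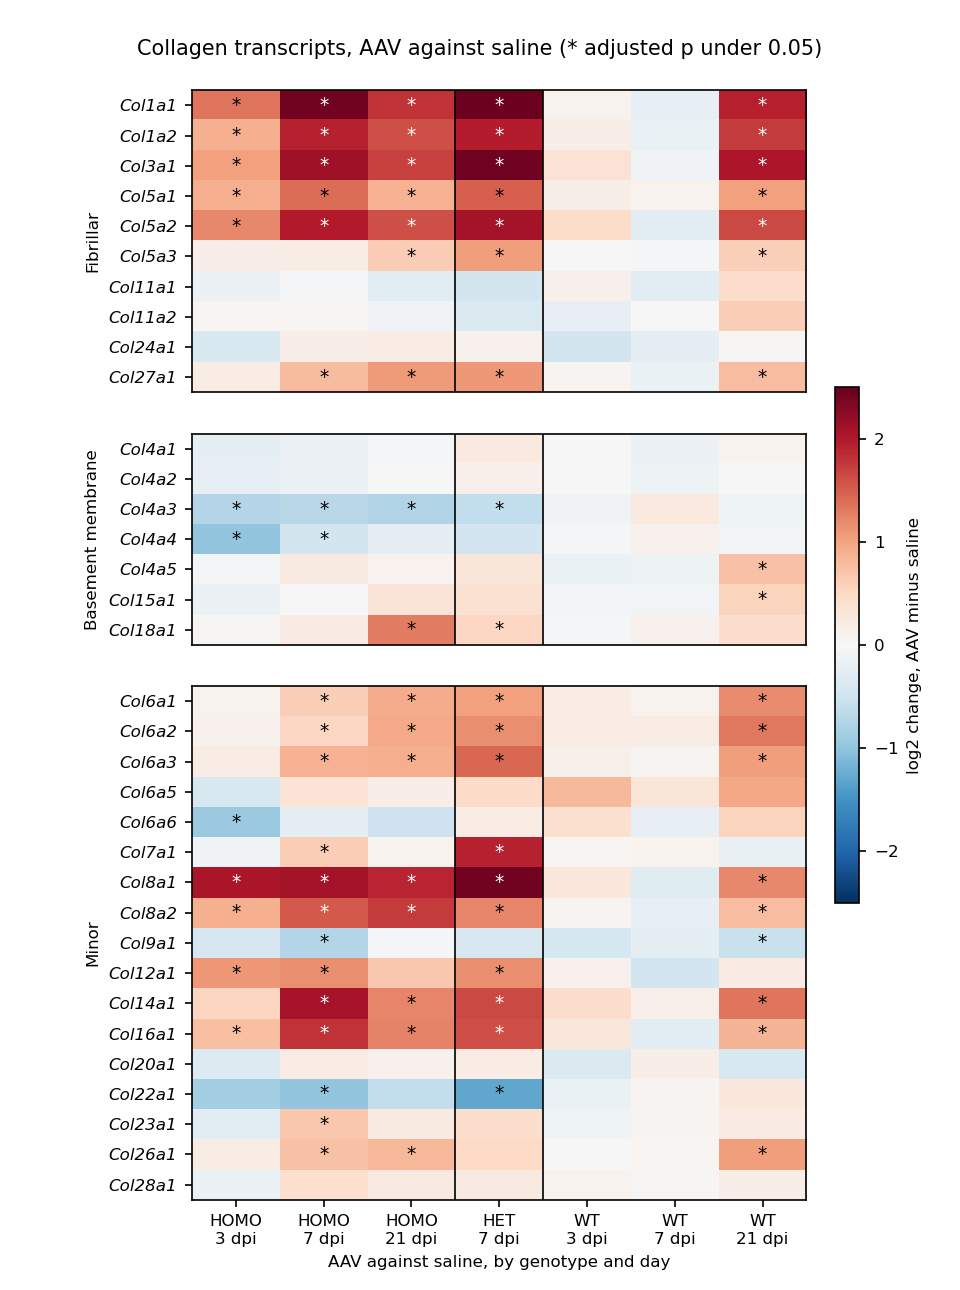
Log2 change of AAV over saline muscle for the 34 tested collagens (rows, by class) in 7 comparisons (columns, by genotype and day), with a star where the adjusted p was under 0.05. Rows of Col1a1, Col1a2, Col3a1, Col5a1, Col5a2, Col8a1 and Col8a2 are red with stars in HOMO at each day, in HET at 7 dpi and in WT at 21 dpi, Col4a1 and Col4a2 carry no star, and the WT columns at 3 and 7 dpi carry none.

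Among fibrillar collagens, both chains of type I, the chain of type III and 2 of the type V chains rose in each of the 5 comparisons with calls. Col1a1 (chromosome 11, 94936224 to 94953042, GRCm38, plus strand) encodes the alpha-1 chain of type I collagen, the main fibre-forming collagen of tendon and connective tissue. At 3 dpi it had 513, 559, 456 and 206 normalised counts in HOMO AAV libraries, against 227, 121, 183 and 131 in HOMO saline libraries. One AAV library lay within the saline range, and the change was 1.33 ± 0.34, adjusted p = 0.0018. At 7 dpi it had 963, 1099, 426, 1003 and 569 in HOMO AAV libraries, against 175, 132, 147 and 124 in HOMO saline libraries. All 5 AAV libraries lay above all 4 saline libraries at 7 dpi, with a change of 2.40 ± 0.32, adjusted p = 8.80e-08. At 21 dpi it had 509, 415, 367 and 266 in HOMO AAV libraries, against 117, 108, 97.3 and 110.5 in HOMO saline libraries, again without overlap (1.80 ± 0.34, adjusted p = 1.10e-05).

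In HET at 7 dpi Col1a1 had 444, 872, 586 and 717 normalised counts after AAV, against 159, 138, 101 and 79 after saline. The groups did not overlap, and the change of 2.46 ± 0.34, adjusted p = 1.36e-07 was close in size to that in HOMO. In WT at 7 dpi it had 149, 172, 171 and 72.2 after AAV, against 190.1, 122 and 155 after saline. These groups overlapped, with a change of -0.20 ± 0.36 and a 95% interval of -0.93 to 0.53. In WT at 3 dpi it had 225, 126, 363, 259.9 and 222 after AAV, against 335, 195 and 148 after saline, with overlap and a change of 0.09 ± 0.35. The highest of these WT saline libraries, replicate 1, also had the highest summed tendon markers of that group, 367 against 189.6 and 83, and what that gave to its collagen level was not tested. Over all libraries the tendon sum rests chiefly on Thbs4 and Fmod, with means of 90 and 42.6 normalised counts, followed by Scx with 5.2. In WT at 21 dpi Col1a1 had 288, 156, 587 and 541 after AAV, against 76.8, 89.7, 95.1 and 98.8 after saline (1.94 ± 0.34, adjusted p = 1.11e-05). All 4 AAV libraries lay above the saline libraries, and the lowest of them, replicate 2, also had the lowest summed macrophage markers (228 against 339.6 to 659 in the other 3).

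**Figure D2:**
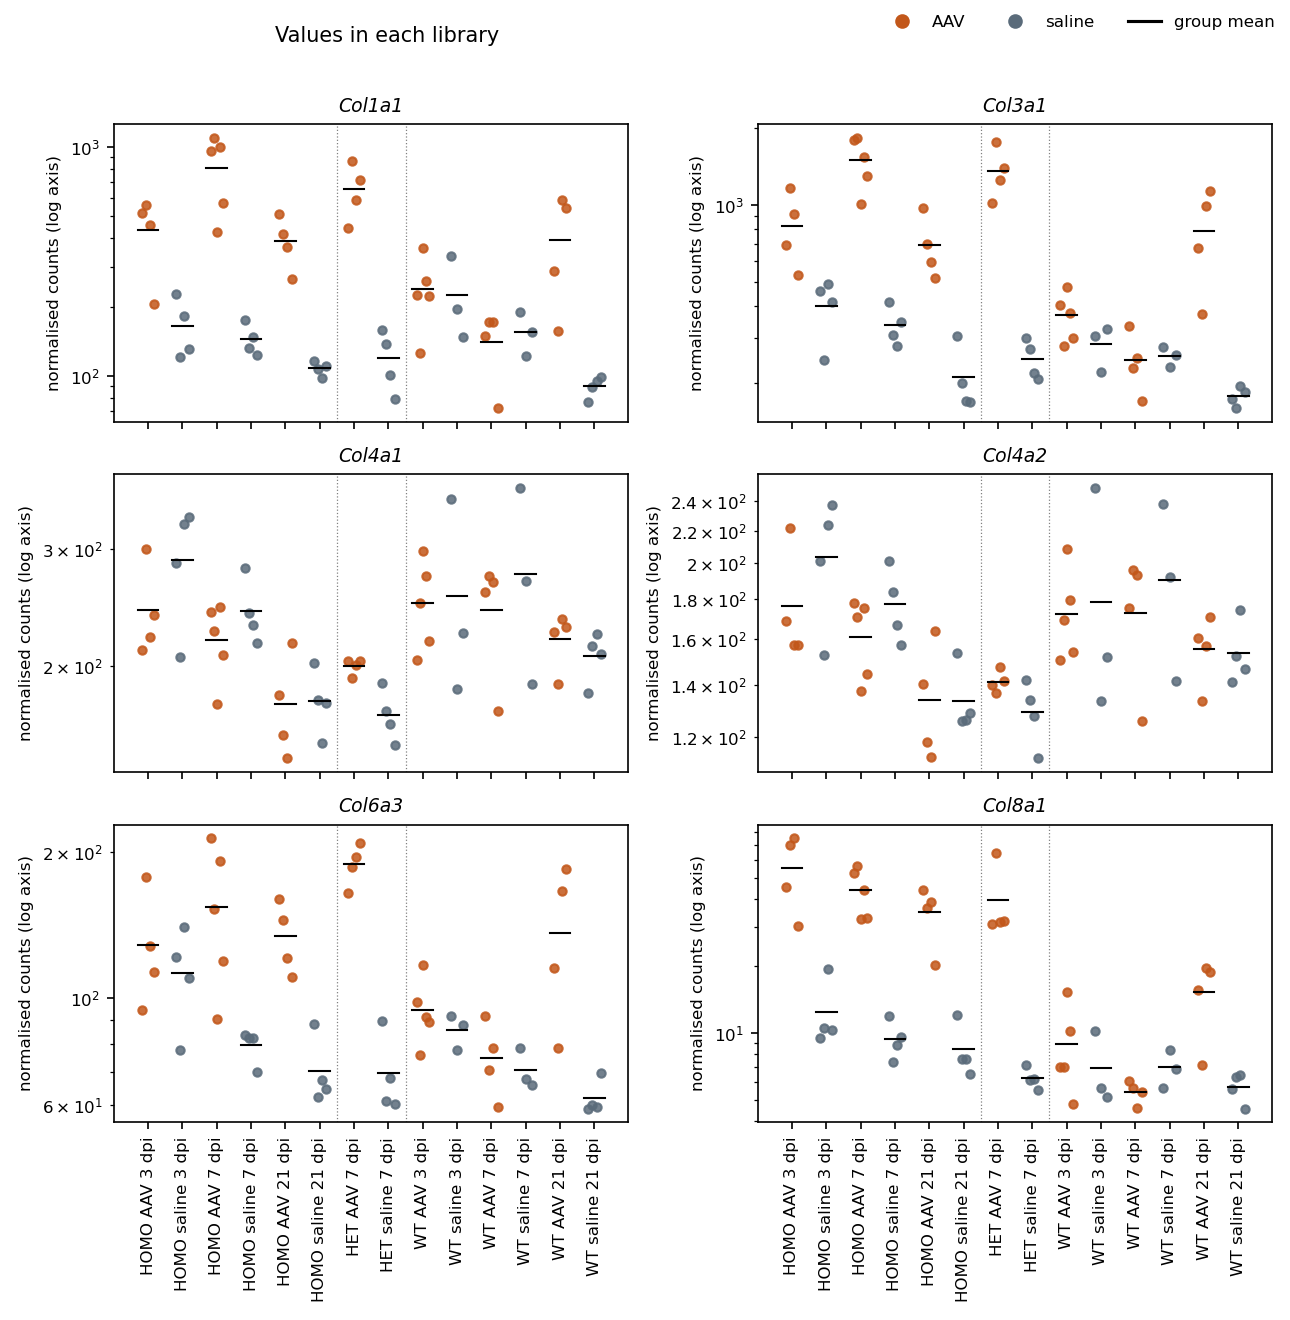
Normalised counts of Col1a1, Col3a1, Col4a1, Col4a2, Col6a3 and Col8a1 in each of the 56 libraries on a log axis, by genotype, treatment and day. For Col1a1 and Col3a1 the HOMO and HET AAV libraries at 7 dpi sit above every saline library, while for Col4a2 AAV and saline libraries overlap in every comparison and for Col4a1 in all but HET.

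Col3a1 (chromosome 1) encodes the only chain of type III collagen, which forms fine fibres with type I in compliant tissue and is abundant in healing wounds. It had 693, 1159, 916 and 532 normalised counts in HOMO AAV libraries at 3 dpi, against 457, 246, 488 and 417 in HOMO saline libraries (1.02 ± 0.26, adjusted p = 0.00172). At 7 dpi it had 1795, 1829, 1004, 1532 and 1294 in HOMO AAV libraries, against 415, 308, 280.1 and 346 in HOMO saline libraries (2.12 ± 0.24, adjusted p = 5.21e-09). It was the member with the highest level per kb in HOMO AAV muscle at this day, 152 normalised counts per kb against 34.4 in HOMO saline muscle. At 21 dpi it had 974, 699, 597 and 516 in HOMO AAV libraries, against 307, 201, 169.9 and 169 in HOMO saline libraries (1.72 ± 0.26, adjusted p = 1.87e-07). In HET at 7 dpi it had 1015, 1764, 1253 and 1388 after AAV, against 299.6, 272, 219.6 and 207 after saline (2.42 ± 0.26, adjusted p = 3.54e-10). The AAV libraries lay above the saline libraries in all 4 of these comparisons. In WT at 7 dpi it had 336, 229, 250.3 and 170.4 after AAV, against 277, 231 and 259 after saline, overlapping, with a change of -0.09 ± 0.28. In WT at 21 dpi it had 679, 372, 987 and 1127 after AAV, against 174, 159.9, 196 and 185 after saline (2.03 ± 0.26, adjusted p = 3.00e-08), without overlap. In WT at 3 dpi it had 406, 281, 476, 377 and 302 after AAV, against 306, 221 and 327 after saline, with overlap and a change of 0.36 ± 0.27 that did not pass.

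Col1a2 (chromosome 6) encodes the alpha-2 chain, which joins alpha-1 chains in type I collagen. It had 898, 969, 451, 870.1 and 569 normalised counts in HOMO AAV libraries at 7 dpi, against 207, 184, 212 and 155 in HOMO saline libraries (1.93 ± 0.27, adjusted p = 2.96e-07). No AAV library fell into the saline range. The change was 1.96 ± 0.29, adjusted p = 5.24e-07 in HET at 7 dpi, 1.61 ± 0.29, adjusted p = 5.35e-06 in HOMO at 21 dpi and 1.75 ± 0.29, adjusted p = 4.80e-06 in WT at 21 dpi. At 3 dpi in HOMO it had 424, 573, 510.4 and 249 after AAV, against 293, 162, 271 and 207 after saline, a change of 0.88 ± 0.29, adjusted p = 0.0146. The AAV and saline libraries overlapped there, and the call was lost without HOMO saline 3 dpi replicate 2 (adjusted p = 0.0714), HOMO AAV 3 dpi replicate 2 (adjusted p = 0.0676) and HOMO AAV 3 dpi replicate 3 (adjusted p = 0.0557). In WT the change was 0.17 ± 0.30 at 3 dpi and -0.16 ± 0.31 at 7 dpi, and neither passed. In normalised counts not divided by exon length, the ratio of Col1a1 to Col1a2 was 0.945 to 1.15 in HOMO AAV libraries at 7 dpi. It was 0.694 to 0.847 in HOMO saline libraries. The ratio was 0.933 to 1.02 in HET AAV libraries, against 0.633 to 0.769 in HET saline libraries, with no overlap in either genotype.

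The start regions of 2 of these genes are shown because Col3a1 and Col1a2 lie on different chromosomes and were called together in all 5 comparisons. Each runs from 250 bases before to 50 bases after the RefSeq start (GRCm38.p6, plus strand for both), Col3a1 at chr1:45311288-45311587 and Col1a2 at chr6:4505368-4505667. Capitals mark matches, searched on both strands, to the TATA box motif (TATAAA), to the motif CCAAT of the box of that name, and to the GC box motif (GGGCGG).
Col3a1: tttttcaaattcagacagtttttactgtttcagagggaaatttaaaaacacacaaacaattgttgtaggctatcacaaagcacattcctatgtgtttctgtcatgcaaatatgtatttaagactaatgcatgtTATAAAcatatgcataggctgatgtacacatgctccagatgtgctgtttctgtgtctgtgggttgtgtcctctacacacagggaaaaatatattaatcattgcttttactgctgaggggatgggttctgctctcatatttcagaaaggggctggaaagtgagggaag
Col1a2: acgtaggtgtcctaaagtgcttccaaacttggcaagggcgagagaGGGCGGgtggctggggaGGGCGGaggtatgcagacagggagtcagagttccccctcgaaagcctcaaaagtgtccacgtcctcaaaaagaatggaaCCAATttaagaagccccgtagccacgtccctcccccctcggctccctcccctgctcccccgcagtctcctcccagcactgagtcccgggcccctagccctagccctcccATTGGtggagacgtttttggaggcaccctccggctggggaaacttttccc
The Col3a1 window held a TATA match that begins at -117 and no CCAAT or GC box match, counted with the annotated first base as 1 and no position 0. The Col1a2 window held CCAAT at -109, its reverse complement at 1 and GC boxes at -205 and -188, and no TATA match. Of 32851 windows of the same length, 13.6% held a TATA match, 37.4% a CCAAT match and 35.7% a GC box match. RefSeq windows were found for 29 of the 36 members, as 32 windows, of which 3 held a TATA match, 11 a CCAAT match and 20 a GC box match. The windows are descriptions of sequence, and no binding was measured.

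Type V collagen sits inside type I fibrils and sets their diameter. Col5a1 had 133, 132, 64.6, 102 and 81.9 normalised counts in HOMO AAV libraries at 7 dpi, against 51.6, 33.7, 34.2 and 31.6 in HOMO saline libraries (1.39 ± 0.22, adjusted p = 2.50e-06). Its change was 0.90 ± 0.23, adjusted p = 0.00237 in HOMO at 3 dpi and 0.88 ± 0.23, adjusted p = 0.00133 at 21 dpi, 1.49 ± 0.23, adjusted p = 1.82e-06 in HET and 1.03 ± 0.23, adjusted p = 4.47e-04 in WT at 21 dpi. Col5a2 had 187, 188, 112, 160.1 and 117 in HOMO AAV libraries at 7 dpi, against 44.4, 34.9, 37 and 33.1 in HOMO saline libraries (1.98 ± 0.23, adjusted p = 7.73e-09). Both chains lay above all saline libraries in each of the 5 comparisons. Col5a2 changed by 1.20 ± 0.25, adjusted p = 1.75e-04 in HOMO at 3 dpi and 1.62 ± 0.25, adjusted p = 2.39e-07 at 21 dpi, by 2.09 ± 0.25, adjusted p = 4.49e-09 in HET and by 1.66 ± 0.25, adjusted p = 6.38e-07 in WT at 21 dpi. In WT at 3 and 7 dpi, Col5a1 changed by 0.14 ± 0.24 and 0.10 ± 0.25 and Col5a2 by 0.47 ± 0.25 and -0.26 ± 0.26, and none of these passed. In normalised counts not divided by exon length, the ratio of Col5a2 to Col5a1 was 1.4 to 1.74 in HOMO AAV libraries at 7 dpi. It was 0.861 to 1.08 in HOMO saline libraries. Col3a1 and Col5a2 are neighbours on chromosome 1, 24614 bases apart on opposite strands.

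Col5a3, the third type V chain, was called in 3 of the 5 comparisons. At 7 dpi in HOMO it had 79.9, 70.2, 35.5, 78.6 and 50.8 normalised counts after AAV, against 64.5, 53.3, 51.4 and 45.3 after saline, overlapping, with a change of 0.18 ± 0.20 that did not pass. In HET on the same day it had 50.3, 55.6, 57.2 and 52.3 after AAV, against 30.0, 26.4, 25 and 21.5 after saline, without overlap (1.04 ± 0.21, adjusted p = 1.13e-04). Col5a3 averaged 7.91 normalised counts per kb in HET AAV muscle, against 3.78 in HET, 7.87 in HOMO and 6.65 in WT saline muscle at 7 dpi. It was higher in HOMO at 21 dpi (0.63 ± 0.21, adjusted p = 0.0104) and in WT at 21 dpi (0.59 ± 0.21, adjusted p = 0.0232), where the WT call was lost without WT saline 21 dpi replicate 2 (adjusted p = 0.053), WT AAV 21 dpi replicate 3 (adjusted p = 0.096) and WT AAV 21 dpi replicate 4 (adjusted p = 0.0855). Col27a1, a fibrillar collagen known from cartilage, had 5.65, 3.83, 2.9, 5.15 and 4.17 in HOMO AAV libraries at 7 dpi, against 1.98, 2.4, 2.74 and 1.24 in HOMO saline libraries. It rose there (0.79 ± 0.18, adjusted p = 5.14e-04), in HOMO at 21 dpi (1.06 ± 0.19, adjusted p = 7.84e-06), in HET (1.08 ± 0.19, adjusted p = 1.59e-05) and in WT at 21 dpi (0.76 ± 0.19, adjusted p = 0.00138). Its level over all saline samples averaged 0.156 ± 0.0359 normalised counts per kb. Col11a1, Col11a2 and Col24a1 passed the test in none of the 7 comparisons, and their changes lay between -0.46 and 0.61. Types XI and XXIV are known from cartilage and bone, and the one cartilage and bone marker of 7 that was measured here, Comp, was higher in HOMO at 7 dpi (1.43 ± 0.38, adjusted p = 0.00222) and 21 dpi (1.43 ± 0.40, adjusted p = 0.00205) and not called in HET (0.01 ± 0.40).

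Basement membrane collagens gave another picture. Col4a1 and Col4a2 encode the 2 chains of the type IV heterotrimer found in every basement membrane. Col4a1 had 241, 225, 175, 245 and 208 normalised counts in HOMO AAV libraries at 7 dpi, against 281, 240.0, 230.3 and 216 in HOMO saline libraries. These ranges overlapped, and the change of -0.15 ± 0.16 had a 95% interval of -0.47 to 0.17. At 3 dpi it had 211, 299.9, 220.5 and 238 in HOMO AAV libraries, against 286, 206, 327 and 335 in HOMO saline libraries (-0.24 ± 0.17, adjusted p = 0.283). At 21 dpi it had 181, 157, 145 and 216 in HOMO AAV libraries, against 202, 177, 153 and 176 in HOMO saline libraries (-0.03 ± 0.17). In HET it had 203, 192, 200.3 and 203 after AAV, against 188, 171, 163 and 152 after saline. All 4 HET AAV libraries lay just above the saline libraries, but the change of 0.25 ± 0.17 did not pass (adjusted p = 0.253). It did pass in a fit of the HET groups alone (adjusted p = 0.0137) and with the replicate block in that fit (adjusted p = 0.0132). In WT the change was 0.00 ± 0.17, -0.15 ± 0.18 and 0.08 ± 0.17 at 3, 7 and 21 dpi.

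Col4a2 had changes near those of Col4a1. It had 178, 171, 137, 175 and 144 normalised counts in HOMO AAV libraries at 7 dpi, against 201, 184, 167 and 157 in HOMO saline libraries, a change of -0.14 ± 0.15 with a 95% interval of -0.43 to 0.15. In HET it had 139.8, 136, 147 and 141 after AAV, against 142, 134, 128 and 113 after saline (0.13 ± 0.15). Over the 7 comparisons of AAV with saline, the log2 changes of Col4a1 and Col4a2 differed by at most 0.112. In normalised counts not divided by exon length, the ratio of Col4a1 to Col4a2 was 1.27 to 1.44 in HOMO AAV libraries at 7 dpi. It was 1.3 to 1.39 in HOMO saline libraries. These chains are transcribed from a shared region of chromosome 8 in opposite directions, and their annotated 5′ ends overlap by 22 bases. The ratio was 1.36 to 1.45 in HET AAV libraries, against 1.28 to 1.35 in HET saline libraries, without overlap. WT saline libraries at 7 dpi had ratios of 1.32 to 1.56, a range that holds the HET AAV values. The start windows are shown because these chains share one start region, with Col4a1 at chr8:11312777-11313076 (minus strand) and Col4a2 at chr8:11312555-11312854 (plus strand), RefSeq on GRCm38.p6. Capitals mark the 78 bases that both windows hold.
Col4a1: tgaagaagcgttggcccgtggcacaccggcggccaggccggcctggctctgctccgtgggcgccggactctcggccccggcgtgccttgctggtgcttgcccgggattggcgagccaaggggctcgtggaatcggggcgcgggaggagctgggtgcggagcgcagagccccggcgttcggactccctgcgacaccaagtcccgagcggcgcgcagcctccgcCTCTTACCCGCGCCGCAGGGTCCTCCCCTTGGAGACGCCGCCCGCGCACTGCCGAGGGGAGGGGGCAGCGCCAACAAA
Col4a2: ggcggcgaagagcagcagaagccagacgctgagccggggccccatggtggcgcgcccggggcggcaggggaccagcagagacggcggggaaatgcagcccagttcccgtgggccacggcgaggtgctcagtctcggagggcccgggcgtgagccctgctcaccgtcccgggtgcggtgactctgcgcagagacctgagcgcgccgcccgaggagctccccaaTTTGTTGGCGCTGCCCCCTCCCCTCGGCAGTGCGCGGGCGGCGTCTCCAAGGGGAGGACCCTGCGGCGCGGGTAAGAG
The library kit keeps strand, per the labels, but no source used here gives the strand setting of the counting, and without it reads from the overlap of a gene pair cannot be assigned to one gene.

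The chains of the second type IV network, known from kidney, lung and synapses, were low, and Col4a3 and Col4a4 fell in HOMO. Col4a3 had 1.34, 0.79, 1.07, 1.8 and 1.04 normalised counts in HOMO AAV libraries at 7 dpi, against 2.97, 2.54, 2.12 and 2.52 in HOMO saline libraries, without overlap (-0.69 ± 0.18, adjusted p = 0.00172). It was lower in HOMO also at 3 dpi (-0.74 ± 0.19, adjusted p = 0.00221) and 21 dpi (-0.75 ± 0.19, adjusted p = 7.24e-04), and in HET at 7 dpi (-0.62 ± 0.19, adjusted p = 0.00725). The HET call was lost without HET AAV replicate 4 (adjusted p = 0.0528), and in HET the groups overlapped. These are values of 6 to 49 reads a library in HOMO AAV muscle at 7 dpi, against 41 to 71 reads in HOMO saline muscle, so the precision is low. Col4a4, which starts 71 bases from Col4a3 on the opposite strand, fell in HOMO at 3 dpi (-0.99 ± 0.20, adjusted p = 1.87e-04), without overlap. Its call at 7 dpi in HOMO (-0.47 ± 0.19, adjusted p = 0.0477) was lost without HOMO saline 7 dpi replicates 1, 2, 3 and 4 or HOMO AAV 7 dpi replicates 2 and 3 (adjusted p = 0.0593 to 0.263), and it was lost with edgeR (adjusted p = 0.146), DESeq2 (adjusted p = 0.141), a pseudocount of 4 (adjusted p = 0.059), median-of-ratios scaling (adjusted p = 0.0508) and a fit of the groups compared alone (adjusted p = 0.135). Col4a5, which joins Col4a3 and Col4a4 in that network, rose in WT at 21 dpi (0.72 ± 0.23, adjusted p = 0.00979). That call was lost without WT saline replicate 1 (adjusted p = 0.0502) and with quantile normalisation (adjusted p = 0.132).

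Types XV and XVIII bind at the outer face of the basement membrane and can release anti-angiogenic fragments. Col15a1 had 85.9, 82.3, 43.8, 91.1 and 57.8 normalised counts in HOMO AAV libraries at 7 dpi, against 80.9, 71.2, 62 and 64.6 in HOMO saline libraries, overlapping, with a change of 0.01 ± 0.17. It rose in WT at 21 dpi (0.55 ± 0.17, adjusted p = 0.0102), a call that was lost without WT AAV replicate 4 (adjusted p = 0.0704). Col18a1 differed from Col15a1 at 21 dpi in HOMO. It had 23, 28.2, 29.4 and 16.1 in HOMO AAV libraries, against 11.2, 6.3, 8.99 and 10.7 in HOMO saline libraries, without overlap (1.28 ± 0.19, adjusted p = 1.22e-07). In WT at 21 dpi limma did not call Col18a1. There edgeR (0.53, adjusted p = 0.0339) and DESeq2 (0.53, adjusted p = 0.0281) called it higher. At 7 dpi in HOMO it had 17.6, 15.5, 9.56, 16.6 and 11.4 after AAV, against 13.5, 12.2, 10.5 and 11.3 after saline, with overlap and a change of 0.20 ± 0.18. In HET at 7 dpi it rose by 0.52 ± 0.19, adjusted p = 0.0243, a call that was lost without HET saline 7 dpi replicate 3 (adjusted p = 0.0745), HET AAV 7 dpi replicate 2 (adjusted p = 0.0829) and HET AAV 7 dpi replicate 3 (adjusted p = 0.092). Endothelial and pericyte cells are known sources of basement membrane collagen. Summed endothelial markers lay at 235 to 279 in HOMO AAV libraries at 7 dpi, against 390.4 to 449 in HOMO saline libraries, and summed pericyte and smooth muscle markers at 481 to 659, against 832 to 937. Over all libraries the pericyte and smooth muscle sum rests chiefly on Rgs5 and Abcc9, with means of 374 and 268 normalised counts, followed by Pdgfrb with 42.4. The part of endothelial and pericyte cells in the basement membrane values was not tested.

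Among minor collagens, type VI, the beaded filament around muscle fibres, was higher in HOMO at 7 and 21 dpi, in HET and in WT at 21 dpi, through Col6a1, Col6a2 and Col6a3. Col6a1 had 172, 145, 76.9, 143 and 123 normalised counts in HOMO AAV libraries at 7 dpi, against 97.7, 86.1, 77.8 and 71.8 in HOMO saline libraries (0.62 ± 0.19, adjusted p = 0.00643). One AAV library lay inside the saline range. At 21 dpi it had 147, 114, 111 and 110.0 in HOMO AAV libraries, against 75.1, 62.2, 61.2 and 53.9 in HOMO saline libraries, without overlap (0.92 ± 0.20, adjusted p = 8.37e-05). It changed by 1.02 ± 0.20, adjusted p = 4.67e-05 in HET and by 1.18 ± 0.20, adjusted p = 5.23e-06 in WT at 21 dpi. Col6a3, the largest chain of the type, had 214, 153, 90.5, 192 and 119 in HOMO AAV libraries at 7 dpi, against 83.6, 82.3, 82.6 and 70.2 in HOMO saline libraries, without overlap (0.88 ± 0.19, adjusted p = 3.14e-04). In HET at 7 dpi it had 164, 186, 196 and 209 after AAV, against 89.3, 61, 68.1 and 60.3 after saline (1.44 ± 0.21, adjusted p = 3.00e-07). It rose by 0.91 ± 0.21, adjusted p = 1.76e-04 in HOMO and 1.05 ± 0.21, adjusted p = 6.40e-05 in WT at 21 dpi. Col6a2 rose in the same 4 comparisons, by 0.52 to 1.32, and its call in HOMO at 7 dpi (0.52 ± 0.20, adjusted p = 0.033) was lost without HOMO saline 7 dpi replicates 2, 3 and 4 or HOMO AAV 7 dpi replicates 1, 2 and 4 (adjusted p = 0.0631 to 0.0928). At 3 dpi in HOMO none of the 3 chains passed, with changes of 0.10 ± 0.20, 0.12 ± 0.21 and 0.18 ± 0.21. Col6a2 and Col6a1 lie 85161 bases apart, and their changes differed by at most 0.139. Col6a5 passed in none, and Col6a6, an alternative chain to Col6a3, was lower in HOMO at 3 dpi (-0.92 ± 0.28, adjusted p = 0.00842), a call that was lost without HOMO AAV replicate 3 (adjusted p = 0.056).

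Type VIII, a short-chain collagen that forms hexagonal networks and is known from remodelling vessel walls, had the largest change of any member at 3 dpi in HOMO. Col8a1 had 45.1, 70.4, 75.1 and 30.4 normalised counts in HOMO AAV libraries at 3 dpi, against 9.46, 10.5, 19.3 and 10.3 in HOMO saline libraries (2.04 ± 0.28, adjusted p = 4.67e-07). At 7 dpi it had 52.6, 56.6, 32.5, 44 and 32.9 in HOMO AAV libraries, against 11.9, 7.39, 8.83 and 9.53 in HOMO saline libraries (2.08 ± 0.27, adjusted p = 4.97e-08). At 21 dpi it had 43.9, 36.6, 38.7 and 20.1 in HOMO AAV libraries, against 12.1, 7.58, 7.62 and 6.52 in HOMO saline libraries (1.90 ± 0.28, adjusted p = 1.80e-07). AAV libraries lay above saline libraries at each of these days. In HET it had 30.8, 64.2, 31.6 and 31.8 after AAV, against 7.16, 6.11, 6.17 and 5.52 after saline (2.42 ± 0.28, adjusted p = 4.48e-09). In WT it had 6.05, 5.65, 4.58 and 5.39 after AAV at 7 dpi, against 5.65, 8.4 and 6.89 after saline, with overlap and a change of -0.31 ± 0.31. In WT at 21 dpi it had 15.5, 7.12, 19.6 and 18.8 after AAV, against 5.56, 6.31, 6.42 and 4.55 after saline, without overlap (1.20 ± 0.28, adjusted p = 6.97e-04). Col8a2, its partner chain, was low, with 5.51, 8.33, 1.63, 7.08 and 1.94 in HOMO AAV libraries at 7 dpi, against 0.977, 0.641, 1.36 and 0.33 in HOMO saline libraries (1.54 ± 0.29, adjusted p = 3.42e-05). Col8a2 was also higher in HOMO at 21 dpi (1.75 ± 0.31, adjusted p = 3.87e-06) and in HET (1.23 ± 0.31, adjusted p = 0.00121). Its call at 3 dpi in HOMO (0.89 ± 0.31, adjusted p = 0.0205) was lost without HOMO saline 3 dpi replicate 4 (adjusted p = 0.0792), HOMO AAV 3 dpi replicate 2 (adjusted p = 0.0562) and HOMO AAV 3 dpi replicate 3 (adjusted p = 0.0847) and with quantile normalisation (adjusted p = 0.0546). Its call in WT at 21 dpi (0.78 ± 0.31, adjusted p = 0.0382) was lost without WT saline 21 dpi replicates 1, 2 and 4 or WT AAV 21 dpi replicates 3 and 4 (adjusted p = 0.0625 to 0.193), with a pseudocount of 4 (adjusted p = 0.119), with quantile normalisation (adjusted p = 0.397) and in a fit of the groups compared alone (adjusted p = 0.0588).

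The FACIT collagens attach to the surface of fibrils, and 3 of the 6 tested rose at 7 dpi in HOMO and in HET. Col14a1 had 59.8, 53, 28.3, 53.6 and 45.4 normalised counts in HOMO AAV libraries at 7 dpi, against 9.63, 10.2, 9.9 and 11.7 in HOMO saline libraries (2.07 ± 0.30, adjusted p = 3.92e-07). The lowest AAV library was above the highest saline library. At 3 dpi it had 12.4, 23.6, 17.6 and 7.68 in HOMO AAV libraries, against 9.62, 8.0, 13.1 and 8.04 in HOMO saline libraries, overlapping, with a change of 0.53 ± 0.31 (adjusted p = 0.187). It rose in HOMO at 21 dpi (1.23 ± 0.31, adjusted p = 8.07e-04), in HET (1.65 ± 0.31, adjusted p = 4.13e-05) and in WT at 21 dpi (1.34 ± 0.31, adjusted p = 6.30e-04). Col16a1 had 21.2, 24.9, 12.6, 24.1 and 15 in HOMO AAV libraries at 7 dpi, against 5.3, 5.2, 4.07 and 4.45 in HOMO saline libraries (1.80 ± 0.23, adjusted p = 4.78e-08). It was higher in HOMO at 3 dpi (0.76 ± 0.24, adjusted p = 0.0133) and 21 dpi (1.24 ± 0.24, adjusted p = 2.48e-05), in HET (1.62 ± 0.24, adjusted p = 8.36e-07) and in WT at 21 dpi (0.84 ± 0.24, adjusted p = 0.00477). The call in HOMO at 3 dpi was lost without HOMO AAV replicate 2 (adjusted p = 0.11), and that in WT without WT AAV replicate 3 (adjusted p = 0.0518).

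Col12a1, the FACIT collagen of tendon and fascia, had its highest mean at 3 dpi in HOMO, with 14.1, 19.2, 29.1 and 10.8 normalised counts in HOMO AAV libraries, against 9.57, 7.57, 11.6 and 3.63 in HOMO saline libraries (1.09 ± 0.35, adjusted p = 0.0137). At 7 dpi it had 18.8, 16.5, 12, 9.96 and 11.3 in HOMO AAV libraries, against 10.3, 5.34, 6.68 and 2.16 in HOMO saline libraries (1.15 ± 0.33, adjusted p = 0.00469). In HET it had 7.5, 21.4, 12.1 and 10.5 after AAV, against 5.52, 5.58, 4.5 and 3.79 after saline (1.17 ± 0.35, adjusted p = 0.00709). Each of these calls depended on single libraries. The call at 3 dpi was lost without HOMO saline 3 dpi replicate 4 (adjusted p = 0.0952) and HOMO AAV 3 dpi replicate 3 (adjusted p = 0.0868), that at 7 dpi without HOMO saline replicate 4 (adjusted p = 0.0568) and that in HET without HET AAV replicate 2 (adjusted p = 0.0556). Summed tendon markers lay at 179 to 255 in HOMO AAV libraries at 7 dpi, against 37.4 to 134 in HOMO saline libraries. Of the 5 tendon markers tested, 2 were higher and 1 lower there, and their part in the collagen values was not tested. Over all libraries the tendon sum rests chiefly on Thbs4 and Fmod.

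Some FACIT collagens fell. Col22a1, which sits at the junction of muscle and tendon, had 2.35, 4.07, 6.38, 3.62 and 5.19 normalised counts in HOMO AAV libraries at 7 dpi, against 12, 8.95, 12.2 and 5.16 in HOMO saline libraries (-0.98 ± 0.39, adjusted p = 0.0394). In HET it had 2.97, 5.47, 2.92 and 0.793 after AAV, against 11.3, 8.2, 8.94 and 4.9 after saline (-1.30 ± 0.41, adjusted p = 0.0104). Both pairs of groups overlapped. The HOMO call was lost without HOMO saline 7 dpi replicates 1, 2 and 3 or HOMO AAV 7 dpi replicates 1, 2 and 4 (adjusted p = 0.0599 to 0.112) and with a pseudocount of 4 (adjusted p = 0.0594), and the HET call without HET AAV replicate 4 (adjusted p = 0.0809). Col9a1, a cartilage FACIT chain near the detection filter, was lower in HOMO at 7 dpi (-0.74 ± 0.21, adjusted p = 0.00459). It was also lower in WT at 21 dpi (-0.56 ± 0.22, adjusted p = 0.0401), a call that was lost without WT saline 21 dpi replicates 1, 2 and 4 or WT AAV 21 dpi replicates 1, 3 and 4 (adjusted p = 0.0615 to 0.131) and with a pseudocount of 4 (adjusted p = 0.0629).

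Of the remaining minor collagens, Col7a1 rose in HET and in HOMO at 7 dpi. Type VII forms anchoring fibrils under epithelia, and its level in muscle is low. Col7a1 had 35.7, 62.5, 39.2 and 55.3 normalised counts in HET AAV libraries, against 12.1, 12.5, 12.9 and 9.48 in HET saline libraries (1.92 ± 0.21, adjusted p = 5.92e-10). In HOMO at 7 dpi it had 35, 27.1, 24.2, 23.3 and 20.8 after AAV, against 17.7, 15.6, 18.6 and 14 after saline, without overlap and with a smaller change (0.62 ± 0.20, adjusted p = 0.00962). Col23a1, a transmembrane collagen, rose in HOMO at 7 dpi (0.67 ± 0.20, adjusted p = 0.00491). Col26a1 rose in HOMO at 7 dpi (0.73 ± 0.22, adjusted p = 0.00644) and 21 dpi (0.83 ± 0.23, adjusted p = 0.00205) and in WT at 21 dpi (1.05 ± 0.23, adjusted p = 2.82e-04), and the HOMO call at 21 dpi was lost with quantile normalisation (adjusted p = 0.122). Col20a1, a FACIT chain, and Col28a1 passed in none. The 2 members left out of the tests stayed low, Col13a1 averaging 0.143 ± 0.0522 and Col25a1 0.053 ± 0.0306 normalised counts per kb over the 26 saline samples.

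Summed per kb, fibrillar collagens in HOMO AAV libraries at 7 dpi reached 231 to 479.8, against 83.2 to 107 in HOMO saline libraries, a ratio of means of 4.16. Basement membrane collagens summed to 53 to 77, against 65.5 to 83.6 in HOMO saline libraries, a ratio of 0.932. Minor collagens summed to 51.6 to 106, against 41.5 to 52.4, a ratio of 1.8. The fibrillar sums did not overlap between AAV and saline, and the basement membrane sums did. The fibrillar ratio was 2.06 in HOMO at 3 dpi, 3.03 in HOMO at 21 dpi, 4.63 in HET and 3.68 in WT at 21 dpi. In WT at 3 and 7 dpi it was 1.14 and 0.943. The basement membrane ratio ranged from 0.86 in HOMO at 3 dpi to 1.17 in HET over the 7 comparisons. The sums rest on a few abundant chains and are given as levels without a test.

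The make-up of collagen transcripts changed accordingly. Fibrillar members held 68.8 to 74.5% of the collagen level per kb in HOMO AAV libraries at 7 dpi, against 41.2 to 44.1% in HOMO saline libraries. Basement membrane members held 11.1 to 15.8%, against 34 to 36%. The ratio of types I and III (Col1a1, Col1a2, Col3a1) to type IV (Col4a1, Col4a2) was 4.6 to 7.71 in HOMO AAV libraries, against 1.11 to 1.26 in HOMO saline libraries at 7 dpi. In HET it was 4.33 to 8.24 after AAV, against 1.16 to 1.54 after saline. In WT at 7 dpi it was 0.863 to 1.17 after AAV, against 0.839 to 1.4 after saline, and at 21 dpi 1.71 to 4.39 after AAV, against 0.753 to 0.90 after saline. The ranges separated in HOMO, in HET and in WT at 21 dpi, and overlapped in WT at 7 dpi. All collagens together took 0.334 to 0.651% of the column total in HOMO AAV libraries at 7 dpi, against 0.141 to 0.172% in HOMO saline libraries.

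**Figure D3:**
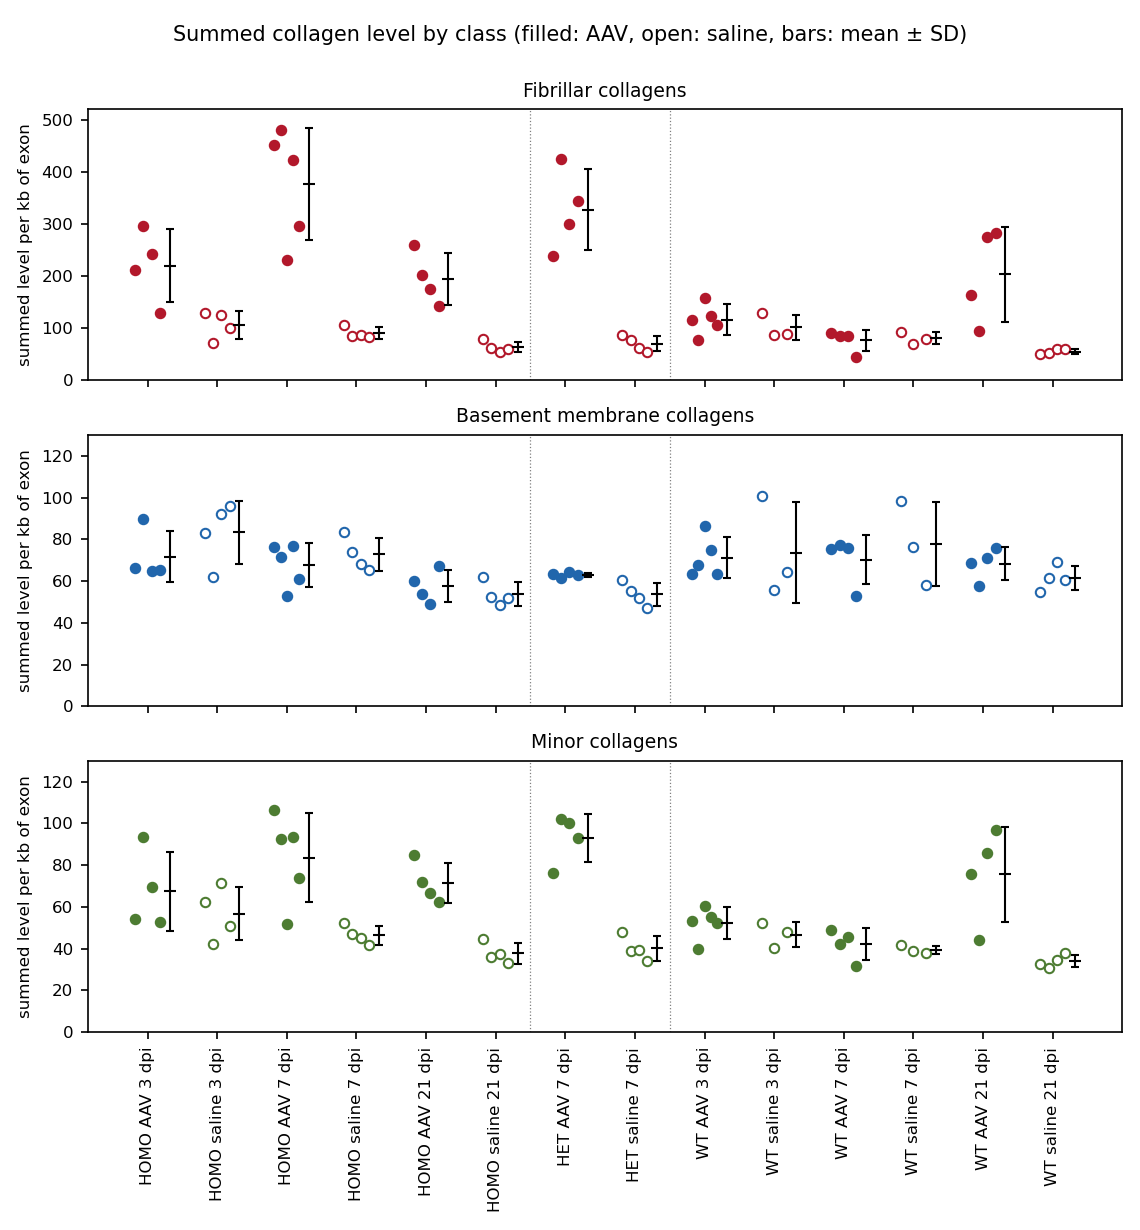
Summed level per kb of annotated exon of fibrillar, basement membrane and minor collagens by genotype and day, with filled points for AAV and open points for saline libraries and bars for mean ± SD. The fibrillar AAV points at 7 dpi lie at 231 to 480 in HOMO and the saline points at 83.2 to 107, while basement membrane points of the treatments overlap at each day in HOMO and WT and do not in HET (61.5 to 64.1 after AAV, 47.1 to 60.3 after saline).

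The responses of the genotypes were compared directly by testing the difference between the AAV-minus-saline changes. In these comparisons and those between days, more and less refer to the signed log2 change, so less can also mean a stronger fall. These comparisons share the WT samples of a day, so the HOMO and HET values are given side by side. At 7 dpi, 12 members responded more in HOMO than in WT and 1 less, where 9.29% and 10.9% of all genes did. In HET against WT at 7 dpi, 16 members responded more and 1 less, against 10.3% and 9.88% of all genes. Col1a1 differed by 2.60 ± 0.48, adjusted p = 2.25e-04 in HOMO minus WT and 2.66 ± 0.50, adjusted p = 1.39e-04 in HET minus WT. For Col3a1 the differences were 2.21 ± 0.37, adjusted p = 6.23e-05 in HOMO minus WT and 2.51 ± 0.38, adjusted p = 5.16e-06 in HET minus WT. For Col5a2 they were 2.24 ± 0.35, adjusted p = 2.65e-05 and 2.35 ± 0.36, adjusted p = 7.17e-06, and for Col8a1 2.39 ± 0.41, adjusted p = 8.58e-05 and 2.72 ± 0.42, adjusted p = 7.13e-06, each HOMO minus WT first and HET minus WT second. Col1a2, Col5a1, Col14a1 and Col16a1 were called in both, by 2.09, 1.30, 1.94 and 2.08 in HOMO minus WT and by 2.12, 1.39, 1.52 and 1.90 in HET minus WT. Col27a1 was called in both as well (0.96 in HOMO minus WT, 1.25 in HET minus WT), and Col5a3 in HET minus WT (1.10 ± 0.31, adjusted p = 0.010). The mean of Col5a3 was lower in HET than in WT saline muscle, 3.78 against 6.65 normalised counts per kb. The HET call of Col14a1 was lost without WT saline replicate 3 (adjusted p = 0.0501). Col12a1 differed by 1.63 ± 0.51, adjusted p = 0.0194 and 1.64 ± 0.52, adjusted p = 0.0201, where the HOMO call was lost without WT saline 7 dpi replicate 3 (adjusted p = 0.0794), WT AAV 7 dpi replicate 4 (adjusted p = 0.0651) and HOMO saline 7 dpi replicate 4 (adjusted p = 0.0656) and the HET call without WT saline 7 dpi replicate 3 (adjusted p = 0.0793), WT AAV 7 dpi replicate 4 (adjusted p = 0.0692) and HET AAV 7 dpi replicate 2 (adjusted p = 0.0663).

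For type VI, Col6a3 differed by 0.81 ± 0.30, adjusted p = 0.0454 in HOMO minus WT and 1.37 ± 0.30, adjusted p = 9.96e-04 in HET minus WT. The HOMO call was lost without any 1 of WT saline 7 dpi replicates 1, 2 and 3, WT AAV 7 dpi replicates 2, 3 and 4, HOMO saline 7 dpi replicates 1, 2, 3 and 4 or HOMO AAV 7 dpi replicates 1, 2 and 4 (adjusted p = 0.0521 to 0.112). Col6a1 was called in HET minus WT (0.93 ± 0.29, adjusted p = 0.0176), a call that was lost without WT saline 7 dpi replicate 1 (adjusted p = 0.0523) and WT AAV 7 dpi replicate 4 (adjusted p = 0.0561), and it did not pass in HOMO minus WT (0.52 ± 0.28, adjusted p = 0.182). Col6a2 was called in HET minus WT (0.97 ± 0.31, adjusted p = 0.0233) and lost without WT saline 7 dpi replicate 1, WT AAV 7 dpi replicate 4, HET saline 7 dpi replicate 4 or HET AAV 7 dpi replicate 3 (adjusted p = 0.0506 to 0.0764). Col7a1 differed by 1.83 ± 0.31, adjusted p = 2.74e-05 in HET minus WT, Col8a2 by 1.75 ± 0.44, adjusted p = 0.00425 in HOMO minus WT and 1.43 ± 0.45, adjusted p = 0.0191 in HET minus WT, and the HET call of Col8a2 was lost without HET AAV replicate 2 (adjusted p = 0.0592). Col4a3, which fell in HOMO and in HET at 7 dpi, had a negative difference. It was -0.94 ± 0.27, adjusted p = 0.0123 in HOMO minus WT and -0.87 ± 0.28, adjusted p = 0.0219 in HET minus WT. The HET call of Col4a3 was lost without WT saline 7 dpi replicate 3, WT AAV 7 dpi replicate 4, HET saline 7 dpi replicate 1 or HET AAV 7 dpi replicate 4 (adjusted p = 0.0553 to 0.0689) and with edgeR (adjusted p = 0.0535). Col4a1 did not differ detectably, with 95% intervals of -0.48 to 0.49 in HOMO minus WT and -0.10 to 0.90 in HET minus WT.

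HOMO and HET responses at 7 dpi were also set against each other. No member was higher in HOMO minus HET, with edgeR, DESeq2 or at an unadjusted p under 0.05 either, and 1 was lower, where 0.699% and 2.54% of all genes were called. That member was Col7a1, at -1.30 ± 0.29, adjusted p = 0.00366. For Col1a1 the HOMO minus HET difference was -0.05 ± 0.46, with a 95% interval of -0.99 to 0.88, and for Col3a1 it was -0.30 ± 0.35, with an interval of -1.01 to 0.41. A p that misses the threshold does not show that the genotypes respond alike.

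At 3 dpi the HOMO response exceeded that of WT for 1 member and was below it for 2, against 5.39% and 4.36% of all genes. Col8a1 differed by 1.77 ± 0.41, adjusted p = 0.00431. Col4a4 (-0.95 ± 0.29, adjusted p = 0.0321) and Col6a6 (-1.33 ± 0.40, adjusted p = 0.0275) were the lower ones. The Col4a4 call was lost without WT saline 3 dpi replicate 1, WT AAV 3 dpi replicates 1 and 2, HOMO saline 3 dpi replicates 1 and 4 or HOMO AAV 3 dpi replicate 3 (adjusted p = 0.0524 to 0.144), and the Col6a6 call without WT saline 3 dpi replicate 2, WT AAV 3 dpi replicate 4, HOMO saline 3 dpi replicates 1 and 3 or HOMO AAV 3 dpi replicates 1 and 3 (adjusted p = 0.0504 to 0.0871). Col1a1 differed by 1.25 ± 0.48 at 3 dpi and did not pass (adjusted p = 0.0882), while DESeq2 called it higher (1.31, adjusted p = 0.0478). At 21 dpi 1 member responded more in HOMO than in WT and 0 less, against 1.84% and 3.79% of all genes, and 2 members were lower at an unadjusted p under 0.05. DESeq2 and edgeR called 0 members lower there as well. The one called was Col18a1, at 0.85 ± 0.27, adjusted p = 0.0472. Its call was lost without WT saline 21 dpi replicates 1, 2, 3 and 4, WT AAV 21 dpi replicates 1 and 2, HOMO saline 21 dpi replicates 2 and 3 or HOMO AAV 21 dpi replicates 1, 2 and 3 (adjusted p = 0.0556 to 0.139), with edgeR (adjusted p = 0.0558), in a fit of the groups compared alone (adjusted p = 0.184) and with a replicate block (adjusted p = 0.0524). For Col1a1 the 21 dpi difference was -0.13 ± 0.48, with a 95% interval of -1.09 to 0.83.

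**Figure D4:**
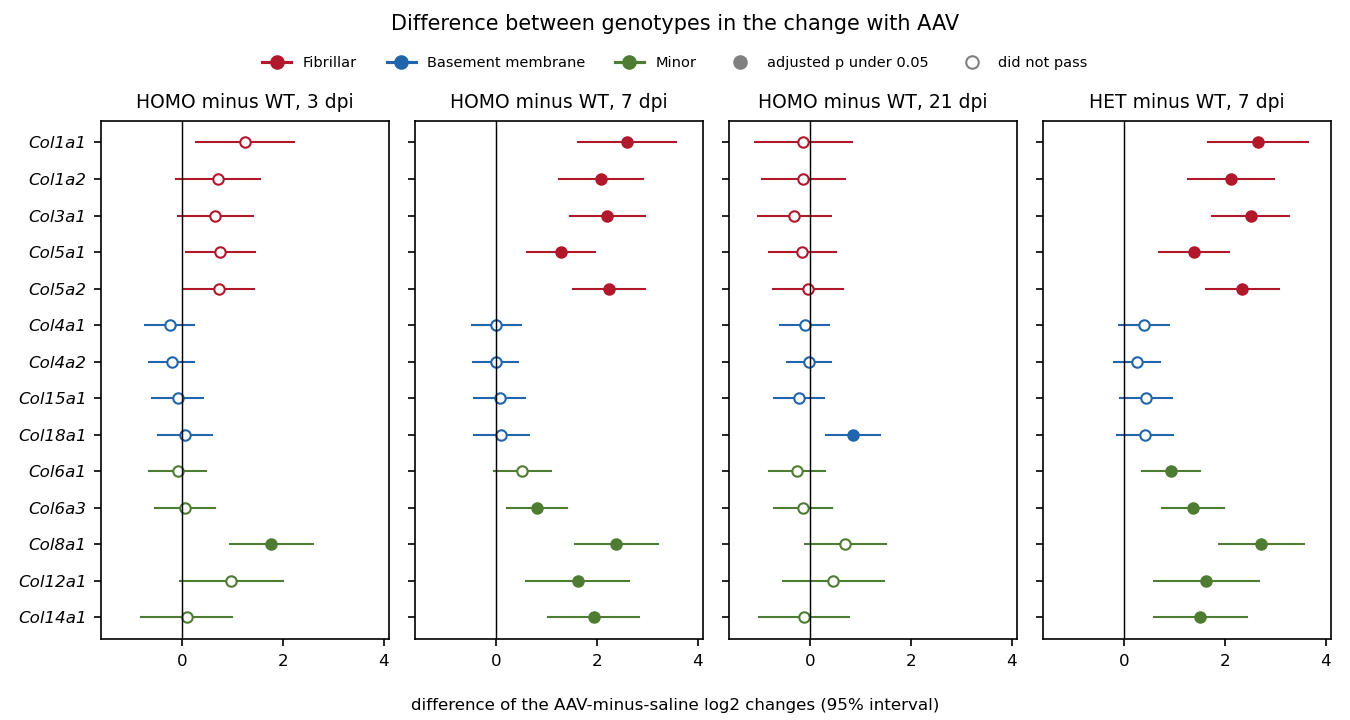
Difference between genotypes in the AAV-minus-saline log2 change of 14 collagens, with 95% intervals, in 4 panels; filled points passed at an adjusted p under 0.05. At 7 dpi the points of types I, III, V, VIII, XII and XIV lie right of 0 and are filled in HOMO minus WT and in HET minus WT, while the intervals of Col4a1 and Col4a2 cross 0, and at 21 dpi Col18a1 alone is filled.

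Within HOMO, the AAV response was compared between days. At 7 against 3 dpi, 2 members responded more and 0 less, against 2.8% and 3.16% of all genes. With edgeR, DESeq2 and an unadjusted p under 0.05, 0 were lower too. At an unadjusted p under 0.05, 11 members were higher, 32.4% of the members, against 19.8% of all genes in either direction. Col3a1 was called higher with DESeq2 (adjusted p = 0.0326), a replicate block (adjusted p = 0.0403) and a filter at a mean of 5 CPM (adjusted p = 0.0451). Col16a1 was called higher with that filter (adjusted p = 0.0458) and with quantile normalisation (adjusted p = 0.0309). Col14a1 differed by 1.54 ± 0.43, adjusted p = 0.0234 between 7 and 3 dpi, a call that was lost without HOMO saline 3 dpi replicate 3 (adjusted p = 0.0597) and HOMO AAV 3 dpi replicate 4 (adjusted p = 0.0733). Col23a1 differed by 0.96 ± 0.29, adjusted p = 0.0319, and its call was lost without HOMO saline 3 dpi replicates 2, 3 and 4, HOMO AAV 3 dpi replicates 3 and 4, HOMO saline 7 dpi replicates 1 and 2 or HOMO AAV 7 dpi replicate 2 (adjusted p = 0.0509 to 0.116), with edgeR (adjusted p = 0.0707) and in a fit of the groups compared alone (adjusted p = 0.088). The change of Col1a1 at 7 minus 3 dpi was 1.07 ± 0.46 and did not pass (adjusted p = 0.173). At 21 against 7 dpi, 1 member responded more and 0 less, against 7.54% and 6.27% of all genes. There edgeR, DESeq2 and an unadjusted p under 0.05 gave 0 lower as well. The one called was Col18a1, with a difference of 1.08 ± 0.26, adjusted p = 0.0039.

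Few collagens differed between saline muscles. Over 3, 7 and 21 dpi, 2 members were higher in HOMO than in WT saline muscle and 0 lower, against 7.31% and 5.04% of all genes. With edgeR, DESeq2 and an unadjusted p under 0.05, 0 were lower. At an unadjusted p under 0.05, 5 members were higher, 14.7% of the members, against 24.6% of all genes in either direction. Col7a1 was also called higher by edgeR (adjusted p = 0.0485) and DESeq2 (adjusted p = 0.0353). A fit of the groups compared alone added Col7a1, Col3a1, Col5a2 and Col6a3 as higher (adjusted p = 0.0293 to 0.0465). Col8a1 had 11.9, 7.39, 8.83 and 9.53 normalised counts in HOMO saline libraries at 7 dpi, against 5.65, 8.4 and 6.89 in WT saline libraries, and over the 3 days it differed by 0.53 ± 0.17, adjusted p = 0.0328. Col8a1 lost its call without WT saline 3 dpi replicates 2 and 3, HOMO saline 3 dpi replicate 3, WT saline 7 dpi replicates 1 and 3, HOMO saline 7 dpi replicate 1, WT saline 21 dpi replicate 4 or HOMO saline 21 dpi replicate 1 (adjusted p = 0.0528 to 0.0847), with a pseudocount of 4 (adjusted p = 0.0645) and with quantile normalisation (adjusted p = 0.0536). Col23a1 differed by 0.39 ± 0.13, adjusted p = 0.0332, a call that was lost without WT saline 3 dpi replicate 1, HOMO saline 3 dpi replicates 2 and 3, WT saline 7 dpi replicates 1 and 2, HOMO saline 7 dpi replicate 4, WT saline 21 dpi replicate 4 or HOMO saline 21 dpi replicates 1 and 3 (adjusted p = 0.0501 to 0.12) and with quantile normalisation (adjusted p = 0.055). In HET against WT saline muscle at 7 dpi, 0 members were called in either direction, against 0.131% and 0.0691% of all genes. At an unadjusted p under 0.05, 1 was higher and 4 lower there, DESeq2 called 1 lower and edgeR 0.

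Between 21 and 3 dpi in saline muscle, averaged over HOMO and WT, 1 member was higher and 3 lower, against 0.376% and 0.169% of all genes. Col24a1 was higher (0.89 ± 0.21, adjusted p = 0.0368). Col1a2 (-0.87 ± 0.21, adjusted p = 0.040), Col3a1 (-0.79 ± 0.19, adjusted p = 0.040) and Col6a1 (-0.59 ± 0.14, adjusted p = 0.040) were lower at 21 dpi. For Col3a1 the libraries had 307, 201, 169.9 and 169 in HOMO and 174, 159.9, 196 and 185 in WT saline muscle at 21 dpi, against 457, 246, 488 and 417 in HOMO and 306, 221 and 327 in WT saline muscle at 3 dpi. At an unadjusted p under 0.05, 2 members were higher and 16 lower, 52.9% of the members, against 12.8% of all genes. edgeR called 6 members lower (0.215% of all genes), DESeq2 10 (0.545%) and a fit of these groups alone 11 (1.64%). Summed tendon markers had a median of 87.1 in HOMO and 65.2 in WT saline muscle at 21 dpi, against 159 in HOMO and 189.6 in WT saline muscle at 3 dpi, with overlapping ranges, and their part in these values was not tested. Thbs4 and Fmod had the highest means of the tendon list over all libraries. The calls rest on the samples, test and scaling used. Col24a1 lost its call without WT saline 3 dpi replicates 1 and 3, HOMO saline 3 dpi replicates 3 and 4, WT saline 21 dpi replicates 1, 2 and 3 or HOMO saline 21 dpi replicates 2 and 4 (adjusted p = 0.0555 to 0.135). Col1a2 lost it without WT saline 3 dpi replicates 1 and 2, HOMO saline 3 dpi replicates 1, 3 and 4, WT saline 21 dpi replicates 1, 2 and 3 or HOMO saline 21 dpi replicates 2, 3 and 4 (adjusted p = 0.0558 to 0.156), Col3a1 without WT saline 3 dpi replicates 1, 2 and 3, HOMO saline 3 dpi replicates 1, 3 and 4, WT saline 21 dpi replicates 1, 2, 3 and 4 or HOMO saline 21 dpi replicates 2, 3 and 4 (adjusted p = 0.0544 to 0.129) and Col6a1 without WT saline 3 dpi replicates 1, 2 and 3, HOMO saline 3 dpi replicates 1, 3 and 4, WT saline 21 dpi replicates 1, 2 and 3 or HOMO saline 21 dpi replicates 2, 3 and 4 (adjusted p = 0.0558 to 0.138). With quantile normalisation all 4 were lost, at adjusted p = 0.0739 for Col24a1, 0.0998 for Col1a2, 0.124 for Col3a1 and 0.099 for Col6a1. With a replicate block the 3 lower calls were lost, at adjusted p = 0.0555, 0.0502 and 0.0528 for Col1a2, Col3a1 and Col6a1.

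Collagen chains are hydroxylated and folded in the endoplasmic reticulum, trimmed outside the cell, crosslinked, and later bound or broken down. The shares of all genes called higher and lower were 17.4% and 17.2% in HOMO at 3 dpi, 20.6% and 22.5% at 7 dpi, 29.7% and 29.6% at 21 dpi, 19.6% and 20.8% in HET, and 19.7% and 21.3% in WT at 21 dpi, and the counts below are set against them. The median log2 change in HOMO at 7 dpi was 0.28 for chaperones and modifying enzymes, 0.49 for propeptide processing, 1.17 for crosslinking, 0.56 for proteoglycans, 0.30 for receptors and 1.84 for collagen-degrading genes, with -0.01 for all genes. Of 19 tested chaperones and modifying enzymes, 10 were higher and 1 lower in HOMO at 3 dpi, 9 and 4 at 7 dpi, 9 and 4 at 21 dpi, 10 and 0 in HET, and 7 and 3 in WT at 21 dpi. The higher counts stood above the shares of all genes, and the lower counts at or below them. Serpinh1, the collagen chaperone HSP47, rose by 1.00 ± 0.17, adjusted p = 9.11e-06 in HOMO at 3 dpi, by 0.76 ± 0.16, adjusted p = 1.35e-04 at 7 dpi and by 0.84 ± 0.17, adjusted p = 7.39e-05 in HET. Fkbp10, a prolyl isomerase that acts on collagen, rose by 1.14 ± 0.24, adjusted p = 1.70e-04 in HOMO at 7 dpi and 0.88 ± 0.25, adjusted p = 0.00456 in HET. Plod2, which hydroxylates the lysines used for stable crosslinks, rose by 0.59 ± 0.17, adjusted p = 0.00369 in HOMO and 0.72 ± 0.18, adjusted p = 9.80e-04 in HET at 7 dpi. Colgalt2, a collagen galactosyltransferase, and the secretion factors Mia3 and Sec23a fell in HOMO at 7 dpi, by -0.64, -0.28 and -0.37 on the log2 scale. The prolyl hydroxylase subunit P4ha1 changed by 0.13 ± 0.13 there and did not pass.

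Crosslinking enzymes of the lysyl oxidase family were called in one direction only, with 4, 3 and 3 of 4 tested higher in HOMO at 3, 7 and 21 dpi, 3 in HET and 4 in WT at 21 dpi, and 0 lower. Lox had 68.6, 73.5, 57.7, 46.4 and 59 normalised counts in HOMO AAV libraries at 7 dpi, against 7.17, 6.53, 7.6 and 5.36 in HOMO saline libraries. It rose by 2.85 ± 0.32, adjusted p = 7.77e-09 in HOMO at 3 dpi, 3.01 ± 0.31, adjusted p = 3.08e-10 at 7 dpi and 1.78 ± 0.32, adjusted p = 7.46e-06 at 21 dpi. It rose by 2.61 ± 0.32, adjusted p = 1.57e-08 in HET and by 1.41 ± 0.32, adjusted p = 4.76e-04 in WT at 21 dpi. Among propeptide processing genes, of which 5 were tested, 1, 3 and 4 were higher in HOMO at 3, 7 and 21 dpi, 3 in HET and 3 in WT at 21 dpi, and 1, 0, 1, 0 and 0 were lower. Pcolce, which enhances removal of the C-propeptide, rose by 1.02 ± 0.17, adjusted p = 4.79e-06 in HOMO and 0.96 ± 0.18, adjusted p = 3.05e-05 in HET at 7 dpi. Adamts2, which removes the N-propeptide, rose by 1.12 ± 0.17, adjusted p = 6.88e-07 in HOMO at 7 dpi. Adamts14, a related protease, rose by 1.62 ± 0.28, adjusted p = 2.59e-06 in HOMO at 21 dpi.

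Of 8 fibril-binding proteoglycans, 1, 4 and 3 were higher and 1, 1 and 2 lower in HOMO at 3, 7 and 21 dpi, 4 higher and 2 lower in HET, and 2 higher in WT at 21 dpi. The higher counts at 7 dpi stood above the shares of all genes, and the others were near or below them. Biglycan (Bgn) rose by 2.18 ± 0.23, adjusted p = 4.22e-10 in HOMO and 2.04 ± 0.24, adjusted p = 3.87e-09 in HET at 7 dpi. Decorin (Dcn), its close relative, fell in HOMO at 3 dpi (-0.77 ± 0.13, adjusted p = 1.36e-05) and changed by 0.17 ± 0.12 at 7 dpi, which did not pass. Keratocan (Kera), a small proteoglycan known from cornea and tendon, fell in HOMO (-1.29 ± 0.49, adjusted p = 0.031) and in HET (-1.30 ± 0.52, adjusted p = 0.0412) at 7 dpi. The HOMO call was lost without HOMO saline 7 dpi replicates 1, 2 and 3 or HOMO AAV 7 dpi replicates 1, 2 and 4 (adjusted p = 0.0551 to 0.114), with edgeR (adjusted p = 0.0656), DESeq2 (adjusted p = 0.0627) and a pseudocount of 4 (adjusted p = 0.0952). The HET call was lost without HET saline 7 dpi replicates 1, 2 and 3 or HET AAV 7 dpi replicates 1, 3 and 4 (adjusted p = 0.0547 to 0.136), with edgeR (adjusted p = 0.0618), DESeq2 (adjusted p = 0.060) and a pseudocount of 4 (adjusted p = 0.103). Of 8 collagen receptors, 3 were higher in HOMO at each day and 2, 1 and 1 lower, with 2 higher and 1 lower in HET and 5 higher and 1 lower in WT at 21 dpi. The receptor counts in HET, the higher count in HOMO at 21 dpi and the lower counts were near or below the shares of all genes. Itga1, the integrin alpha-1 chain that binds collagen IV, fell in all 5 comparisons, with -0.65 ± 0.12, adjusted p = 1.66e-05 in HOMO and -0.60 ± 0.12, adjusted p = 1.07e-04 in HET at 7 dpi. Its WT call at 21 dpi (-0.36 ± 0.12, adjusted p = 0.0158) was lost without WT saline 21 dpi replicate 3 (adjusted p = 0.0901), WT AAV 21 dpi replicate 3 (adjusted p = 0.0677) and WT AAV 21 dpi replicate 4 (adjusted p = 0.0928) and in a fit of the groups compared alone (adjusted p = 0.0566). Mrc2, the receptor that takes up collagen fragments, rose by 1.26 ± 0.20, adjusted p = 3.13e-06 in HOMO and 1.18 ± 0.21, adjusted p = 2.01e-05 in HET. Lair1, an inhibitory collagen receptor of leukocytes, rose at 21 dpi, by 3.16 ± 0.36, adjusted p = 3.57e-10 in HOMO and 2.62 ± 0.36, adjusted p = 1.48e-07 in WT.

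Of 5 tested genes for collagen breakdown, 0 were called in HOMO at 3 dpi (edgeR 0, DESeq2 1, and 1 lower at an unadjusted p under 0.05), and 4 and 3 were higher at 7 and 21 dpi, 3 in HET and 3 in WT at 21 dpi, with 0 lower. Mmp14, the membrane-bound collagenase, rose by 1.87 ± 0.24, adjusted p = 3.55e-08 in HOMO and 1.91 ± 0.25, adjusted p = 4.89e-08 in HET at 7 dpi. Ctsk, the lysosomal collagenase cathepsin K, rose by 1.84 ± 0.16, adjusted p = 1.65e-11 in HOMO and 1.54 ± 0.17, adjusted p = 1.37e-09 in HET. Mmp13, a secreted collagenase, had 5.75, 29.5, 65.9, 15 and 62.7 normalised counts in HOMO AAV libraries at 7 dpi, against 4.01, 0.214, 0.282 and 0.584 in HOMO saline libraries (3.84 ± 0.43, adjusted p = 2.35e-09). In HET it had 0.462, 1.18, 0.187 and 0.102 after AAV, against 0.245, 0.445, 0.0238 and 0.169 after saline (0.24 ± 0.45), and the HOMO minus HET difference was 3.60 ± 0.62, adjusted p = 1.70e-04. That difference did not pass with edgeR (adjusted p = 0.265) or DESeq2 (adjusted p = 0.134). In WT at 3 and 7 dpi, 0 of the 49 tested genes of these lists were called in either direction by limma, edgeR or DESeq2. At an unadjusted p under 0.05, 1 was higher and 0 lower at 3 dpi and 0 higher and 2 lower at 7 dpi. The lists hold genes known for these roles.

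**Figure D5:**
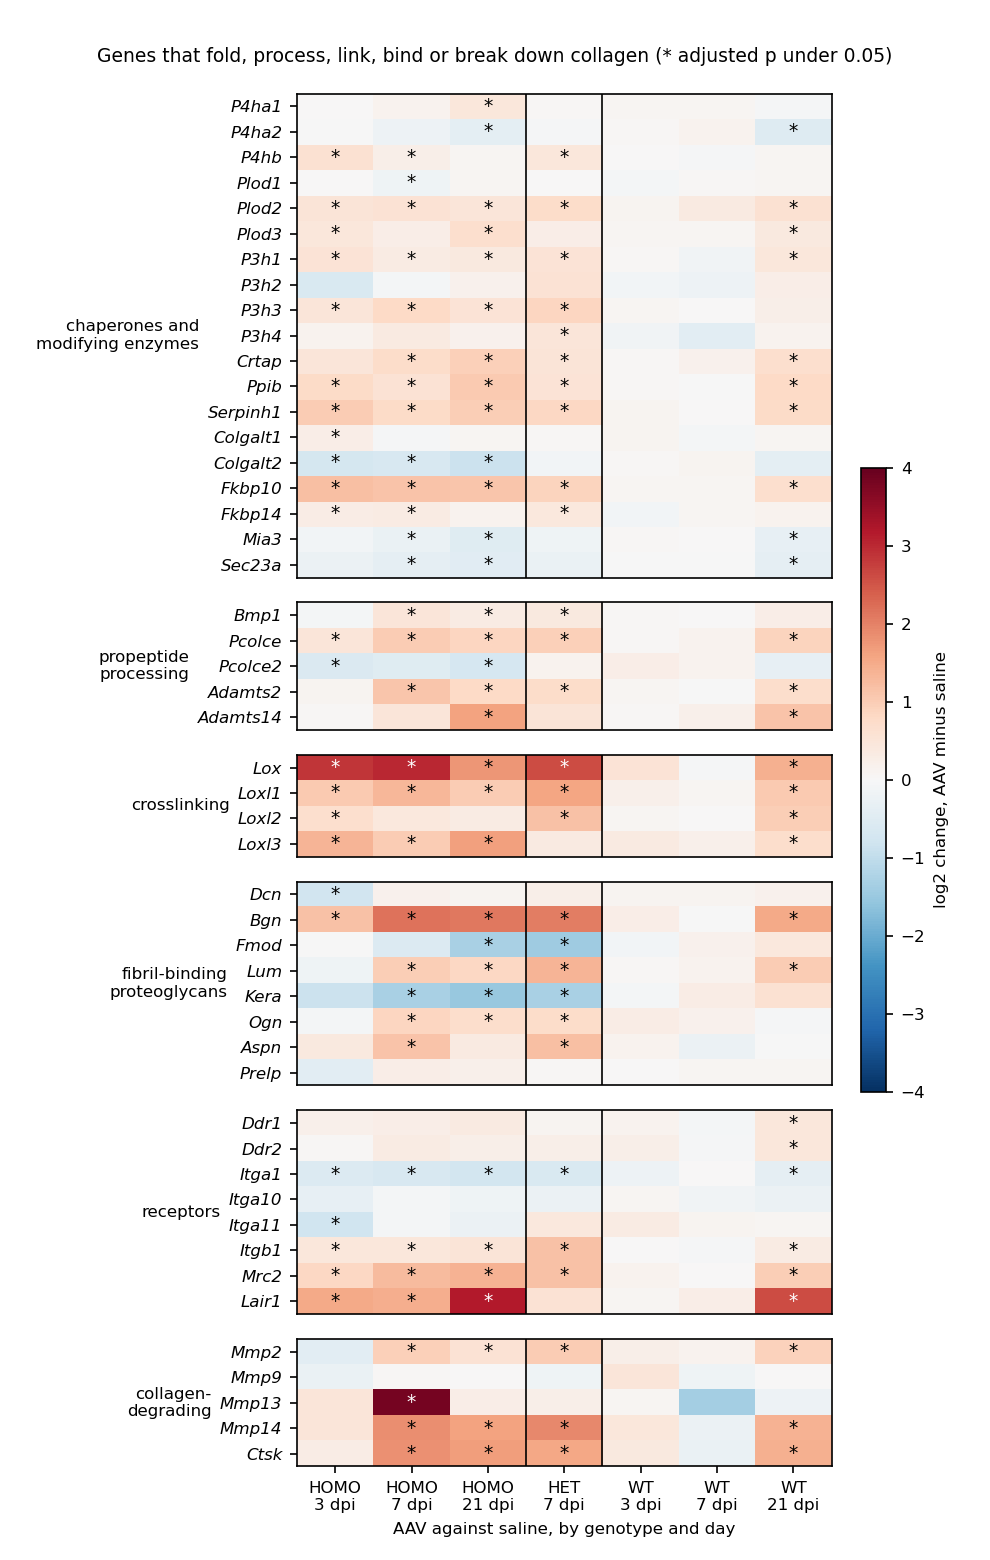
Log2 change of AAV over saline muscle for 49 genes that fold, process, crosslink, bind or break down collagen (rows, by role) in 7 comparisons (columns), with a star where the adjusted p was under 0.05. Lox is among the darkest rows in HOMO and HET, Mmp13 is dark in HOMO at 7 dpi alone, and the WT columns at 3 and 7 dpi carry no star.

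Markers of the cells that make or surround collagen were also called in the 5 comparisons with calls. Of all genes tested, 17.4 to 29.7% were higher and 17.2 to 29.6% lower in these. Of 8 fibroblast markers, 1 was higher and 3 lower in HOMO at 3 dpi, and 4 were higher and 0 lower in HOMO at 7 and 21 dpi, in HET and in WT at 21 dpi. Summed fibroblast markers lay at 479.6 to 718 in HOMO AAV libraries at 7 dpi, against 459.7 to 487 in HOMO saline libraries, and at 302 to 451 at 3 dpi, against 476 to 555. Of 5 tested markers of activated fibroblasts, 3, 3 and 4 were higher in HOMO, 3 in HET and 2 in WT at 21 dpi, with 1 lower in WT. Their sum lay at 284 to 496 in HOMO AAV libraries at 7 dpi, against 72.5 to 107 in HOMO saline libraries, and at 300.4 to 556 in HET AAV libraries, against 72.9 to 85.6 in HET saline libraries. Postn had the highest mean of this list over all libraries, 82.3 normalised counts with a range of 9.61 to 464, followed by Acta2 with 48.9. Summed macrophage markers lay at 239 to 387 in HOMO AAV libraries, against 59.7 to 94.2 in HOMO saline libraries at 7 dpi, and at 184 to 337 in HET AAV libraries, against 52.9 to 90.5 in HET saline libraries. The macrophage sum in WT at 3 dpi was 103 to 239 after AAV, against 75.6 to 78.8 after saline, without overlap, although no single marker passed. In WT at 7 dpi it was 57.9 to 117 after AAV, against 54 to 87.6 after saline. The fibroblast list shares Dcn and Lum with the proteoglycans, and the tendon list shares Fmod and Kera. In HOMO at 3 dpi the AAV library with the lowest Col1a1, replicate 4, also had the lowest sum of macrophage markers (287, against 557 to 746 in the other 3) and of activated fibroblast markers (145, against 266 to 349.9). The part of any of these cells in the collagen values was not tested.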

How the data were processed

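RNA-seq was analysed from one table of tibialis anterior muscle. Its values are a normalised signal, which the authors deposited per gene and sample. Tools listed in the submitters' processing notes, without order or role, are FastQC, Bowtie, RSEM and limma, and the build is GRCm38 (mm10). In each column a value is whole reads plus a small offset, scaled by an effective library size, and 100% of values gave whole reads within 0.02. Tests covered the 13017 genes that averaged at least 1 CPM of the column total; 1853 fell below it, and the transgene row was kept out. Of 14871 rows, 14861 matched a gene of the annotation used for exon lengths. limma 3.58.1 (R 4.3.3) with a mean-variance trend was fitted to log2(value + 1) over the 14 groups and all 56 samples, with Benjamini-Hochberg adjustment over all genes. The recovered reads were tested with edgeR 4.0.16 (quasi-likelihood) and DESeq2 1.42.0 as alternatives: in HOMO at 7 dpi limma called 5616 genes, edgeR 5520 and DESeq2 5591. Each script's test was tried on simulated data.

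Members, classes, gene lists and tests were chosen with earlier results of these data known. Values by sample are given for a core of 14 collagens, then for members with the smallest p in each direction (up to 5 a comparison), those called against their class and those not tested; in the lists of related genes, up to 3 a comparison. Alternatives tried were a pseudocount of 0.25 or 4, a filter at a mean of 5 CPM or none, median-of-ratios and quantile scaling, the groups compared alone, a replicate block and each sample left out. Same-numbered AAV and saline samples deviated together (r over 0.1 for every number) in HOMO at 21 dpi (0.165 to 0.233) and HET at 7 dpi (0.128 to 0.178), and not in the other comparisons. The labels do not say what a number marks. All columns mapped to a sample.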

Additional observations from a re-analysis of the deposited data

Results flagged for a closer look

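Among 168 group checks of the 14 core collagens, a single library stood apart from its group in 11, where chance flags about 1 group in 20. WT AAV replicate 4 at 7 dpi was the lowest of its group for Col1a1 (72.2, against 149 to 172 in the others) and Col4a1 (171, against 258 to 273). At the same day, HOMO saline replicate 1 was high for Col5a1 (51.6, against 31.6 to 34.2), HOMO saline replicate 4 low for Col6a3 (70.2, against 82.3 to 83.6) and HET AAV replicate 2 high for Col8a1 (64.2, against 30.8 to 31.8). At 21 dpi HOMO AAV replicate 3 was low for Col15a1 (50.6, against 65.7 to 67.9), HOMO AAV replicate 1 high for Col6a1 (147, against 110.0 to 114), HOMO saline replicate 1 high for Col4a2 (153, against 126 to 129) and WT saline replicate 4 high for Col6a3 (69.8, against 58.9 to 59.8). At 3 dpi HOMO saline replicate 3 was high for Col8a1 (19.3, against 9.46 to 10.5) and WT AAV replicate 2 low for Col6a1 (74.0, against 96.9 to 102). All values are normalised counts.

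The AAV response of 23 core cases differed between genotypes or days at an adjusted p under 0.05 (limma). At 7 dpi the log2 differences in HOMO minus WT were 2.60 for Col1a1, 2.09 for Col1a2, 2.21 for Col3a1, 1.30 for Col5a1, 2.24 for Col5a2, 0.81 for Col6a3, 2.39 for Col8a1, 1.63 for Col12a1 and 1.94 for Col14a1. In HET minus WT they were 2.66 for Col1a1, 2.12 for Col1a2, 2.51 for Col3a1, 1.39 for Col5a1, 2.35 for Col5a2, 0.93 for Col6a1, 1.37 for Col6a3, 2.72 for Col8a1, 1.64 for Col12a1 and 1.52 for Col14a1. Col8a1 differed by 1.77 in HOMO minus WT at 3 dpi and Col18a1 by 0.85 at 21 dpi. Within HOMO, Col14a1 differed by 1.54 at 7 minus 3 dpi and Col18a1 by 1.08 at 21 minus 7 dpi.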

How the results depend on the processing

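Of 131 calls of single collagens over 17 comparisons, 39 were lost under at least 1 alternative and 0 turned round; which ones is stated beside each call. Counts of higher members kept within 1.5 times in the 7 comparisons of AAV with saline under every alternative run. Counts of lower members were small and moved more. With a mean of at least 5 CPM, which tests fewer genes, lower members numbered 0 in HOMO at 3 dpi, 1 at 7 dpi and 0 at 21 dpi, 1 in HET, 0 in WT at 21 dpi, and 0 in HOMO minus WT at 3 and 7 dpi and HET minus WT. With a pseudocount of 4, 2 were lower in HOMO at 7 dpi, 0 in WT at 21 dpi, and 1 was higher in HOMO than WT saline muscle, as with the 5 CPM filter. Quantile normalisation gave 3 lower in HOMO at 21 dpi, 4 in HET, 2 in WT at 21 dpi, 0 higher in HOMO than WT saline muscle, and 0 higher and 0 lower at 21 minus 3 dpi in saline muscle. It moved the median change of all genes to -0.12 in HOMO at 21 dpi, and the share of higher calls among all genes called to 40.8%, against 50.1% without it, and in WT at 21 dpi to 40.2%, against 48.0%. edgeR gave 0 higher in HOMO minus WT at 21 dpi, 0 lower in HET minus WT, 1 higher at 7 minus 3 dpi and 6 lower at 21 minus 3 dpi in saline muscle. DESeq2 gave 2 higher in HOMO minus WT at 3 dpi, 1 lower in HET than WT saline muscle and 10 lower at 21 minus 3 dpi in saline muscle. Fitting only the groups compared gave 0 higher in HOMO minus WT at 21 dpi, 2 lower in HET minus WT, 1 higher at 7 minus 3 dpi, 6 higher in HOMO than WT saline muscle and 11 lower at 21 minus 3 dpi in saline muscle. With a replicate block, 0 were higher in HOMO minus WT at 21 dpi and 0 lower at 21 minus 3 dpi in saline muscle. The block within only the groups compared, added after seeing the data, gave 3 lower in HOMO at 21 dpi and 4 in HET; no other count of members called moved by over 1.5 times with a block.

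Without single replicates, lower members ranged over 2 to 4 in HOMO at 7 dpi, 1 to 2 at 21 dpi, 0 to 3 in HET, 0 to 1 in WT at 21 dpi, 0 to 2 in HOMO minus WT at 3 dpi, 0 to 1 in HET minus WT, 0 to 2 in HET than WT saline muscle and 0 to 8 at 21 minus 3 dpi in saline muscle. Higher members ranged over 1 to 3 in HOMO minus WT at 3 dpi, 0 to 1 at 21 dpi, 0 to 5 at 7 minus 3 dpi, 0 to 3 in HOMO than WT saline muscle and 0 to 1 at 21 minus 3 dpi in saline muscle. The causes were not tested. Chains of few reads, such as Col4a3, limit what these libraries can show.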
